A study of Mus musculus with 12 samples.

Results

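This report describes 10 genes of Wnt signalling in mouse embryonic stem (ES) cells that carry or lack the receptor gene Notch1. Nkd1, Axin2 and Notum encode feedback inhibitors, Sp5, Lef1 and Tcf7 encode transcription factors, Frzb and Dkk1 encode secreted antagonists, Rspo3 encodes a secreted enhancer and Prickle1 encodes a planar polarity protein. They form a list of names chosen with earlier results of these data known. All 10 of 10 were found among the 40039 loci of the authors' merged transcript models. Wnt proteins bind Frizzled receptors and LRP coreceptors, which stops the destruction of beta-catenin. Beta-catenin then enters the nucleus and switches on genes with the DNA-binding factors of the TCF/LEF family, several of which encode inhibitors of the same pathway. In the embryo and in embryoid bodies, aggregates in which ES cells begin to form embryonic tissues, Wnt signalling is known for its role in the primitive streak and for stage-dependent effects on heart formation.

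Poly(A) RNA was sequenced from C57BL/6J mouse ES cells in 4 groups of 3 libraries, 12 in all: Notch1-/- cells on day 6 and on day 0, and wild-type (WT) cells on day 6 and on day 0. Day 0 cells were undifferentiated cells kept in LIF, a cytokine that holds ES cells in the stem cell state, on fibroblast feeders or on gelatin, and which of these was used for which library is not stated. Day 6 cells came from embryoid bodies made in hanging drops for cardiac differentiation. The series' design text calls the 3 libraries of a group biological replicates, and whether each was a culture of its own is not said. The p-values then speak of the spread between these libraries alone, which may be technical. The labels give neither the deleted part of Notch1 nor the number of lines of each genotype, so genotype and cell line cannot be told apart.

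The libraries held 100637179 to 134662426 counts. Notch1 had 6.80, 4.90 and 4.95 CPM in Notch1-/- libraries on day 6, against 38.0, 30.9 and 31.1 CPM in WT libraries on day 6. It had 3.80, 3.87 and 4.59 CPM in Notch1-/- libraries on day 0, against 61.6, 24.7 and 34.0 CPM in WT libraries on day 0. CPM are normalised read counts, here relative to library sizes scaled by edgeR's TMM method. Every Notch1-/- library lay below every WT library, with residual reads at a locus that shares 22.27% of its exon bases with other loci. The 8 measured ES cell markers summed to 694.8–1120 CPM in Notch1-/- libraries on day 6 and 1768–3121 CPM on day 0, and to 458.8–628.5 CPM in WT libraries on day 6 and 2221–2945 CPM on day 0. Pou5f1 and Dppa5a of that list were not linked to a locus. The cardiac progenitor list summed to 39.92–116.0 CPM in Notch1-/- libraries on day 6, against 336.9–509.6 CPM in WT libraries on day 6, over 7 measured genes. The 10 markers of extraembryonic endoderm summed to 28.4–59.0 CPM in Notch1-/- libraries on day 6, against 363.2–434.1 CPM in WT libraries on day 6. The 10 markers of endothelium and blood summed to 132.5–303.3 CPM in Notch1-/- and 380.3–679 CPM in WT libraries on day 6. The 8 measured neural markers were the other way round, with 204.7–261.4 CPM in Notch1-/- and 104.5–120.7 CPM in WT libraries on day 6, and 4 of them were higher and 2 lower without overlap. Otx2 had the largest difference in CPM, averaging 105 CPM in Notch1-/- and 20.3 CPM in WT embryoid bodies. The 2 lower ones were Zic1 (0.86 against 8.5 CPM) and Ncam1 (27.6 against 45.0 CPM). The 7 measured primitive streak markers summed to 33.0–62.0 CPM in Notch1-/- and 21.1–33.4 CPM in WT libraries on day 6, sums that overlap at their ends and are on average mostly Foxa2. Their mean log2 CPM was 0.911 to 1.73 in Notch1-/- and -1.389 to -0.755 in WT libraries on day 6. Of the 7, 5 were higher in Notch1-/- libraries without overlap, where CPM ranges did not overlap for 59.2% of all loci. These 5, T, Eomes, Mesp1, Mesp2 and Lhx1, were all low. Mesp1 was the highest of them, at 4.95 CPM in Notch1-/- and 0.172 CPM in WT embryoid bodies. Their loci share 63.16% to 94.23% of their exon bases with other loci, Mesp1 and Mesp2 with each other, so these 5 are not independent. The part of such cell types in the differences below was not tested. In bulk samples a lower share of cells of a type and less RNA per cell cannot be told apart.

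Promoter windows of 4 of the genes are shown, to set genes that differed between the genotypes on day 6 beside genes that were not called there. Sp5 and Frzb had the largest differences of the 10 genes, while Dkk1 and Axin2, well-known targets of beta-catenin, did not pass the test. Each window is RefSeq sequence of mouse GRCm38.p6, from 250 bases before to 50 bases after the gene's start, read 5′ to 3′ on the gene's strand. The Sp5 window is chr2:70474673-70474972 on the plus strand, the Dkk1 window chr19:30549447-30549746 on the minus strand, the Axin2 window chr11:108920099-108920398 on the plus strand and the Frzb window chr2:80447347-80447646 on the minus strand. Capitals mark the letters of a TCF/LEF-type motif, searched on both strands. The letters searched were CTTTGAA (held by 5.14% of all 32851 windows of this kind), CTTTGAT (by 3.73%), CTTTGTT (by 5.85%) and CTTTGTA (by 3.63%). These 4 motifs share their first 5 letters, so no 2 of them start at the same base of a strand, while matches on opposite strands can overlap at their last letters.
Sp5: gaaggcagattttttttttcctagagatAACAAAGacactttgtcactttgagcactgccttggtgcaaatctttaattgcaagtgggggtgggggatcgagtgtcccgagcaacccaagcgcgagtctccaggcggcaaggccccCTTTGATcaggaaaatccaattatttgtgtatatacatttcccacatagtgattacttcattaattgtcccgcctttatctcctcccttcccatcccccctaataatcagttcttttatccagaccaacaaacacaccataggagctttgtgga
Dkk1: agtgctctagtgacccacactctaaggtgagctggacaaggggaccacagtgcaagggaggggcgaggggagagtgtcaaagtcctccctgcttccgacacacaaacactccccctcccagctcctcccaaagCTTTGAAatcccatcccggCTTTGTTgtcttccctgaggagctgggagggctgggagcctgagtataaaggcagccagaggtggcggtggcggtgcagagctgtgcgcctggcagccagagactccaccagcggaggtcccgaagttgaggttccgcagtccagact
Axin2: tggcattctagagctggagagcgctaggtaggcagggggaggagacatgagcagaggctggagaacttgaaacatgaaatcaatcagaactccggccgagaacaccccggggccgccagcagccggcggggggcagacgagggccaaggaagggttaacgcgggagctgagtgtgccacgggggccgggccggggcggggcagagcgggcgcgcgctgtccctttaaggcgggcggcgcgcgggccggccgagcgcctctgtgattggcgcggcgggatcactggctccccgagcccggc
Frzb: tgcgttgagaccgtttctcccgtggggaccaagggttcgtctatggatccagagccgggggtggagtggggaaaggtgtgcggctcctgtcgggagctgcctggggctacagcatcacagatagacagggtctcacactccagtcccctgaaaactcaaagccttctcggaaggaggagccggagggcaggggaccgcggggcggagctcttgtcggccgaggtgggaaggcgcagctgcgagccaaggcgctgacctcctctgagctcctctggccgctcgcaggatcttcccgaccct
Windows were available for 8 of the 10 genes, 13 windows in all, and none was given for Notum and Rspo3. The Sp5 window held CTTTGTT on the reverse strand from position -222 and CTTTGAT from -104, counted from the gene's start. The Dkk1 window held CTTTGAA from -117 and CTTTGTT from -98. In Lef1, 1 of 4 windows held CTTTGTA on the reverse strand. The windows of Axin2, Frzb, Nkd1, Tcf7 and Prickle1 did not hold these letters. Of all 32851 promoter windows of 300 bases, 16.9% held at least 1 of the 4 motifs, and 3 of the 13 windows of these genes did. The 3 of 8 genes are not comparable with that share, since some genes have several windows. These counts describe the windows and not binding.

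The first question is what differentiation did to the 10 genes in each genotype. Feedback genes, antagonists and the enhancer Rspo3 stood higher on day 6 than on day 0 in both genotypes, and Notum was the gene that did not follow. Of the 8 genes with counts, 7 rose and 0 fell in Notch1-/- cells, where 35.9% of the 23991 tested loci were called and 17.2% rose. In WT cells 7 of 8 rose and 0 fell too, where 43.1% of loci were called and 18.4% rose (edgeR's quasi-likelihood test on counts, Benjamini-Hochberg adjusted p under 0.05). The median log2 fold change of the 8 genes was 3.05 in Notch1-/- and 2.72 in WT cells, beside -0.02 and -0.12 over all loci. The genes were chosen with earlier results of these data known, so the distance from all loci is a description and no test. Upper quartile scaling moves the medians over all loci to -0.18 and -0.29, and loci that rose were then 37.1% of the calls in Notch1-/- cells, against 47.8% with TMM. Sp5 and Dkk1 have 0 counts in every library. The exons of each lie under an opposite-strand locus, and how reads touching both loci were counted is not given in the sources used here. They are read from the authors' FPKM, fragments per length and library size, tested with limma on log2(FPKM + 1), a scale that understates changes of low genes. By this test, in which 30.6% of 20055 loci were called in Notch1-/- and 41.3% in WT cells, Dkk1 rose in both genotypes and Sp5 in Notch1-/- cells. The libraries of day 6 and day 0 did not overlap for 9 of the 10 genes in each genotype (FPKM for Sp5 and Dkk1), where CPM ranges did not overlap for 49.3% of loci in Notch1-/- and 53.8% in WT cells.

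**Figure D1:**
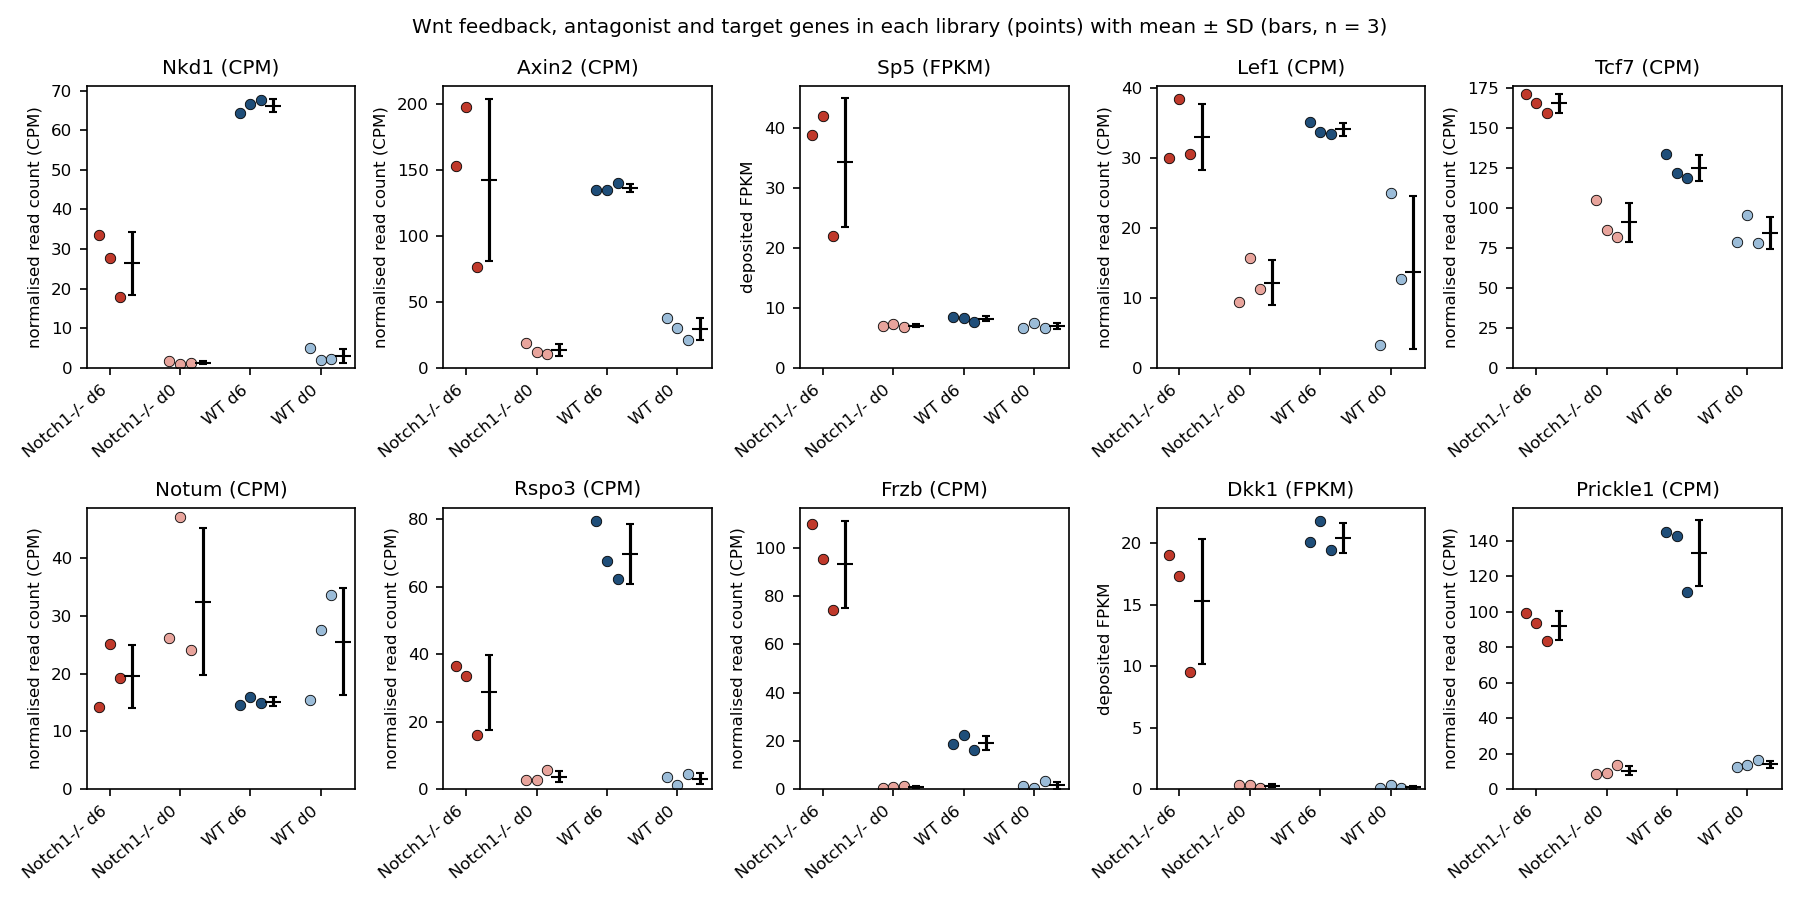
Level of each of the 10 genes in every library, in TMM-normalised CPM or, for Sp5 and Dkk1, deposited FPKM (linear axes from 0), with the mean ± SD of 3 libraries beside the points; groups run Notch1-/- day 6, Notch1-/- day 0, WT day 6, WT day 0. The day 6 points lie above the day 0 points of the same genotype for 9 genes, with Notum the exception, and Sp5 and Frzb are highest in Notch1-/- cells on day 6.

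Nkd1 binds Dishevelled and dampens the signal from the receptor. Nkd1 (XLOC_034676, mm9 chr8:91045216-91119759, plus strand) had 33.7, 27.8 and 17.9 CPM in Notch1-/- libraries on day 6 and 1.65, 0.914 and 1.25 CPM on day 0, and 64.4, 66.6 and 67.6 CPM in WT libraries on day 6 and 4.92, 1.94 and 2.08 CPM on day 0. All 4 groups were separate, in the order WT day 6, Notch1-/- day 6, WT day 0 and Notch1-/- day 0. The day 6 over day 0 change was 4.38 (SE 0.39) in Notch1-/- and 4.47 (SE 0.39) in WT cells on the log2 scale (edgeR adjusted p = 1.31e-05 and 5.89e-06).

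Axin2 is a scaffold of the complex that marks beta-catenin for destruction and the most widely used readout of the pathway. Axin2 (XLOC_005099, chr11:108779204-108812099, plus strand) had 152.9, 197.8 and 76.1 CPM in Notch1-/- libraries on day 6 and 18.3, 11.6 and 9.99 CPM on day 0, and 135.0, 134.4 and 139.9 CPM in WT libraries on day 6 and 37.8, 29.9 and 21.0 CPM on day 0. The 3 Notch1-/- libraries of day 6 spread over 2.6-fold and lie on both sides of the WT ones, which are within 1.04-fold of each other. Axin2 rose by 3.42 (SE 0.35) in Notch1-/- and by 2.21 (SE 0.33) in WT cells (edgeR adjusted p = 2.74e-05 and 0.000235).

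Notum is a secreted enzyme that removes the lipid Wnt proteins need to bind their receptor. Notum (XLOC_006141, chr11:120515103-120524368, minus strand) had 14.2, 25.1 and 19.2 CPM in Notch1-/- libraries on day 6 and 26.1, 47.1 and 24.1 CPM on day 0, and 14.6, 16.0 and 14.97 CPM in WT libraries on day 6 and 15.5, 27.5 and 33.7 CPM on day 0. Day 6 and day 0 overlapped in both genotypes. The changes, -0.73 (SE 0.31) in Notch1-/- and -0.75 (SE 0.31) in WT cells, did not pass the test (edgeR adjusted p = 0.086 and 0.0697). Under upper quartile scaling both passed it, at -0.89 and -0.92 (adjusted p = 0.0438 and 0.0317), and so they did with a replicate block, at -0.73 and -0.70 (0.0336 and 0.0355). The WT change also passed with only the 2 groups compared (0.0484) and without Notch1-/- day 0 library 2 (0.0441) or WT day 0 library 1 (-1.01, 0.0162), and the Notch1-/- change without WT day 0 library 1 (0.0479).

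Lef1 and Tcf7 are DNA-binding partners of beta-catenin. Lef1 (XLOC_022880, chr3:130812532-130927274, plus strand) had 30.0, 38.5 and 30.5 CPM in Notch1-/- libraries on day 6 and 9.45, 15.8 and 11.3 CPM on day 0, and 35.2, 33.7 and 33.5 CPM in WT libraries on day 6 and 3.18, 25.0 and 12.7 CPM on day 0. Day 6 lay above day 0 in both genotypes, and the WT libraries of day 0 spread over 7.88-fold in CPM. In FPKM those WT libraries ran from 3.00 to 15.85. The locus of Lef1 shares 26.34% of its exon bases with other loci, and the effect of that on its counts was not tested. Lef1 rose by 1.44 (SE 0.49) in Notch1-/- and by 1.32 (SE 0.49) in WT cells (edgeR adjusted p = 0.0375 and 0.0446). Leaving out any 1 of the 6 Notch1-/- libraries ended the Notch1-/- call (adjusted p = 0.0507 to 0.107). Leaving out any day 6 library, or library 3 of either day 0 group, ended the WT call (0.0525 to 0.113), and the WT change was 2.12 without WT day 0 library 2. Lef1 was also not called with upper quartile scaling (adjusted p = 0.064 in Notch1-/- and 0.0843 in WT cells, edgeR) or a filter of 1 CPM in 3 libraries (0.0589 and 0.0569), in WT cells with only the 2 groups compared (0.0956), and in Notch1-/- cells with unfiltered log2(FPKM + 1) (0.0544, limma).

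Tcf7 (XLOC_005433, chr11:52065782-52099883, minus strand) had 171.2, 165.8 and 159.3 CPM in Notch1-/- libraries on day 6 and 104.9, 86.0 and 82.1 CPM on day 0, and 134.0, 121.8 and 118.6 CPM in WT libraries on day 6 and 78.7, 95.7 and 78.1 CPM on day 0. It was already well expressed on day 0, and the day 6 libraries stood above the day 0 ones in both genotypes. Its rises were the smallest among the genes called here, 0.86 (SE 0.13) in Notch1-/- and 0.57 (SE 0.13) in WT cells (edgeR adjusted p = 0.000355 and 0.00371).

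Sp5 is a zinc finger factor and a direct target of beta-catenin known from the primitive streak and tail bud of the mouse. Sp5 (XLOC_019282, chr2:70294738-70318592, plus strand) had 38.9, 42.0 and 22.01 FPKM in Notch1-/- libraries on day 6 and 7.01, 7.24 and 6.73 FPKM on day 0, and 8.43, 8.36 and 7.64 FPKM in WT libraries on day 6 and 6.67, 7.47 and 6.61 FPKM on day 0. The Notch1-/- libraries of day 6 stood apart from the 9 others, which all lay between 6.61 and 8.43 FPKM. Sp5 rose by 2.09 (SE 0.19) in Notch1-/- cells, while its change in WT cells was 0.21 (SE 0.19; limma on log2(FPKM + 1), adjusted p = 8.96e-05 and 0.411). The WT ranges do not overlap, and without Notch1-/- day 6 library 3 the WT change of 0.21 passed the test (adjusted p = 0.0382).

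The opposite-strand locus XLOC_020661, with which Sp5 shares 99.99% of its exon bases, keeps a few reads of its own. It had 299, 303 and 204 counts in Notch1-/- libraries on day 6 and 2, 1 and 2 counts on day 0, and 7, 14 and 17 counts in WT libraries on day 6 and 6, 13 and 7 counts on day 0. These counts too set the Notch1-/- libraries of day 6 apart, by a change of 7.01 (SE 0.56; edgeR adjusted p = 7.06e-06) against day 0, but the strand setting of the counting is not given in the sources used here and the reads cannot be assigned to Sp5.

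Dkk1 is a secreted antagonist that binds LRP coreceptors. Dkk1 (XLOC_018461, chr19:30620374-30623986, minus strand) had 19.0, 17.3 and 9.49 FPKM in Notch1-/- libraries on day 6 and 0.369, 0.327 and 0.124 FPKM on day 0, and 20.1, 21.8 and 19.4 FPKM in WT libraries on day 6 and 0.0838, 0.309 and 0.0996 FPKM on day 0. Day 6 and day 0 were far apart in both genotypes. Dkk1 rose by 3.63 (SE 0.21) in Notch1-/- and by 4.21 (SE 0.21) in WT cells (limma on log2(FPKM + 1), adjusted p = 1.35e-05 and 8.95e-07).

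All exon bases of Dkk1 are shared with the opposite-strand locus XLOC_018029, which had 614, 525 and 407 counts in Notch1-/- libraries on day 6 and 2, 3 and 3 counts on day 0, and 437, 260 and 393 counts in WT libraries on day 6 and 4, 0 and 1 counts on day 0. That locus separated the days in both genotypes, as the FPKM of Dkk1 did.

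Frzb, also known as Sfrp3, is a secreted decoy with a Frizzled-like domain that binds Wnt proteins. Frzb (XLOC_020716, chr2:80252127-80288651, minus strand) had 109.9, 95.6 and 74.1 CPM in Notch1-/- libraries on day 6 and 0.575, 0.765 and 1.13 CPM on day 0, and 18.9, 22.4 and 16.4 CPM in WT libraries on day 6 and 1.15, 0.435 and 3.18 CPM on day 0. It was barely present on day 0 and highest in Notch1-/- cells on day 6. Frzb rose by 6.82 (SE 0.62), or 113-fold, in Notch1-/- and by 3.60 (SE 0.53), or 12.1-fold, in WT cells (edgeR adjusted p = 1.43e-05 and 0.000228). The WT change was 4.59 without WT day 0 library 3.

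Rspo3 is an R-spondin, a secreted protein that protects Frizzled receptors from removal and so strengthens the response to Wnt. Rspo3 (XLOC_003177, chr10:29172913-29255673, minus strand) had 36.4, 33.7 and 15.9 CPM in Notch1-/- libraries on day 6 and 2.84, 2.60 and 5.67 CPM on day 0, and 79.6, 67.6 and 62.2 CPM in WT libraries on day 6 and 3.67, 1.36 and 4.35 CPM on day 0. The day 6 groups were apart from each other and from both day 0 groups, which overlapped. Rspo3 rose by 2.95 (SE 0.45) in Notch1-/- and by 4.48 (SE 0.48) in WT cells (edgeR adjusted p = 0.000359 and 2.23e-05).

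Prickle1 acts in planar cell polarity, a branch of Wnt signalling that does not run through beta-catenin. Prickle1 (XLOC_012859, chr15:93329475-93426322, minus strand) had 99.3, 93.9 and 83.5 CPM in Notch1-/- libraries on day 6 and 8.70, 9.03 and 13.5 CPM on day 0, and 144.9, 142.7 and 111.5 CPM in WT libraries on day 6 and 12.3, 13.7 and 16.3 CPM on day 0. Both day 6 groups were apart from day 0 and from each other. Prickle1 rose by 3.15 (SE 0.20) in Notch1-/- and by 3.24 (SE 0.20) in WT cells (edgeR adjusted p = 3.38e-06 and 1.04e-06).

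Fibroblast markers were high on day 0 and differed between libraries, and they are given here beside the order of the 10 genes. The mean log2 CPM of 18 measured fibroblast markers was 4.94, 5.96 and 6.55 in Notch1-/- libraries on day 0, and 5.92, 5.17 and 7.02 in WT libraries on day 0. On day 6 it was 2.08, 1.89 and 2.37 in Notch1-/- and 4.27, 4.38 and 4.42 in WT libraries. The markers summed to 2325–4570 CPM in Notch1-/- and 4296–5364 CPM in WT libraries on day 6, and to 2898–5847 CPM in Notch1-/- and 3928–8010 CPM in WT libraries on day 0, with no marker at 0 in a whole group. On day 6 most of that sum was Fn1, the fibronectin gene, which many cell types express, at 2148–4426 CPM in Notch1-/- and 3083–3743 CPM in WT libraries. Without overlap, 12 of the 18 markers were lower and 2 higher in Notch1-/- libraries on day 6. CPM ranges did not overlap for 59.2% of all loci there. Col1a1 averaged 28.45 CPM in Notch1-/- and 734.6 CPM in WT embryoid bodies, while Lox averaged 1.89 CPM in Notch1-/- and 1.32 CPM in WT ones, with overlap. Frzb stood in the same order as the fibroblast markers over the 3 day 0 libraries of each genotype, and so did Prickle1 in Notch1-/- and Rspo3 in WT cells. Axin2, Tcf7 and Dkk1 stood in the opposite order in Notch1-/- cells, and Tcf7 and Sp5 in WT cells. The other 5 genes in Notch1-/- and 6 in WT cells followed neither order. With only 3 libraries a gene can easily match or reverse an order by chance. The share of all loci that did so was not counted, so these orders are a description only. The part of fibroblast RNA in the day 0 levels was not tested.

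**Figure D2:**
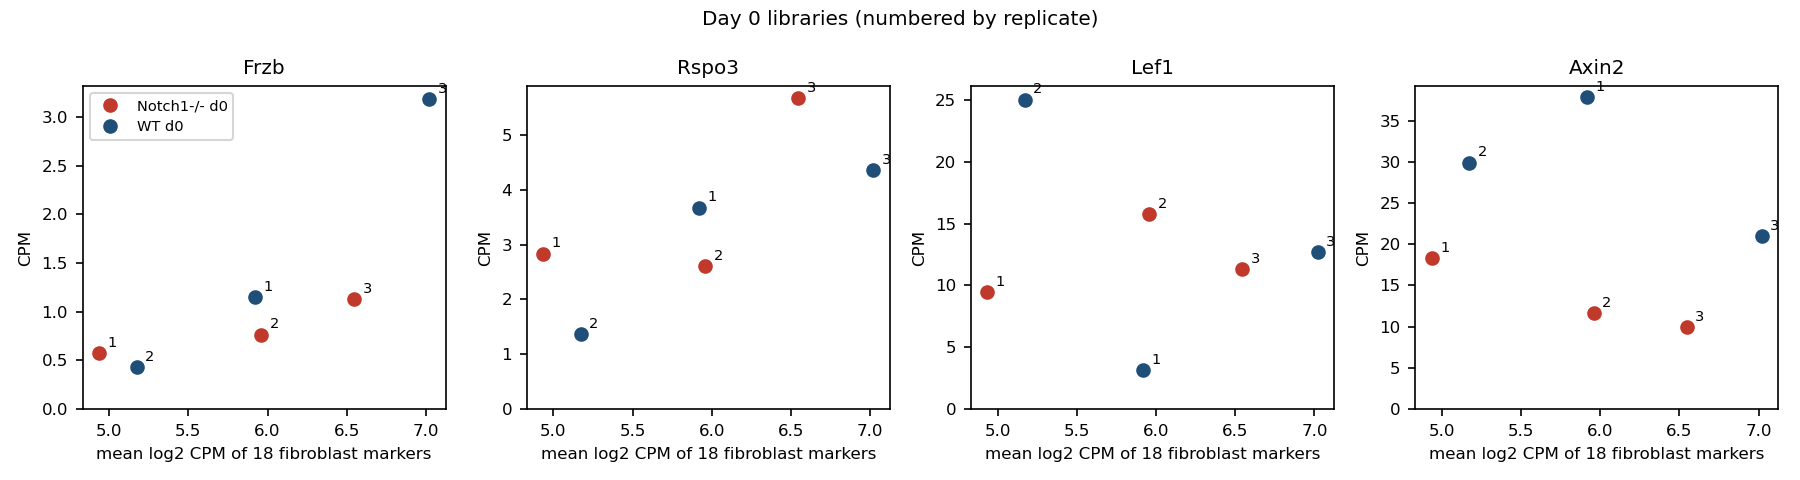
Level of Frzb, Rspo3, Lef1 and Axin2 in CPM (y axes from 0) in the 6 day 0 libraries against the mean log2 CPM of 18 fibroblast markers (x axes), with Notch1-/- in red, WT in blue and points numbered by replicate. Frzb is highest where the markers are highest in each genotype, at 1.13 CPM in Notch1-/- library 3 and 3.18 CPM in WT library 3, while Lef1 is highest in library 2 of both genotypes.

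The second question is how Notch1-/- embryoid bodies differed from WT ones on day 6. The 10 genes did not move together. Frzb and Sp5 were far higher in Notch1-/- cells and Tcf7 slightly higher, while Nkd1, Rspo3 and Prickle1 were lower. Axin2, Lef1 and Notum lay within the overlap of the libraries. Of the 8 genes with counts 2 were higher and 3 lower, where 28.1% of all loci were called, 13.7% higher and 14.4% lower (edgeR). The median over the 8 genes was 0.01, beside 0.01 over all loci. The libraries of the genotypes did not overlap for 7 of the 10 genes, and CPM ranges did not overlap for 59.2% of all loci, so separation of the libraries is common in this comparison.

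Frzb averaged 93.2 ± 17.99 CPM in Notch1-/- and 19.2 ± 3.03 CPM in WT embryoid bodies (SD, n = 3 each), a difference of 2.28 (SE 0.50) on the log2 scale (edgeR adjusted p = 0.00489). It was called under all 22 alternatives tried, with 2.09 to 2.43 and adjusted p from 2.89e-05 to 0.0245. Sp5 averaged 34.3 ± 10.8 FPKM in Notch1-/- and 8.14 ± 0.44 FPKM in WT embryoid bodies, a difference of 1.90 (SE 0.19; limma on log2(FPKM + 1), adjusted p = 0.000105, with 27.8% of loci called by this test). It too was called under all 16 alternatives that could be run on FPKM, with 1.73 to 2.18. All of these reuse the FPKM of 1 locus, which holds 23148 exon bases and was linked to Sp5 by 1 intron. The opposite-strand locus shares 99.99% of those bases, and whether the FPKM come from Sp5 alone was not tested. The locus opposite Sp5 differed by 4.34 (SE 0.45; edgeR adjusted p = 3.53e-05).

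Among the lower genes, Nkd1 averaged 26.4 ± 7.96 CPM in Notch1-/- and 66.2 ± 1.64 CPM in WT embryoid bodies, a difference of -1.32 (SE 0.34; edgeR adjusted p = 0.0124). Rspo3 averaged 28.7 ± 11.1 CPM in Notch1-/- and 69.8 ± 8.92 CPM in WT embryoid bodies (-1.28, SE 0.42; adjusted p = 0.0367, edgeR). Prickle1 averaged 92.2 ± 8.02 CPM in Notch1-/- and 133.0 ± 18.6 CPM in WT embryoid bodies (-0.53, SE 0.18; adjusted p = 0.0493, edgeR). Dkk1 averaged 15.3 ± 5.09 FPKM in Notch1-/- and 20.4 ± 1.22 FPKM in WT embryoid bodies, without overlap but short of the test (-0.45, SE 0.21; limma adjusted p = 0.142). The locus opposite Dkk1 had the other sign, at 0.46 (SE 0.38; edgeR adjusted p = 0.391), and was not called either.

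Tcf7 averaged 165.4 ± 5.99 CPM in Notch1-/- and 124.8 ± 8.12 CPM in WT embryoid bodies, a difference of 0.41 (SE 0.13; edgeR adjusted p = 0.0333). The differences of Axin2 (0.06, SE 0.31), Lef1 (-0.05, SE 0.48) and Notum (0.36, SE 0.31) did not pass the test (edgeR adjusted p = 0.909, 0.956 and 0.416). Standard errors of this size do not show that the genotypes were alike in these genes.

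The calls of Frzb and Sp5 held without any 1 library, and the others did not. Leaving out any of the 6 day 6 libraries ended the call of Tcf7 (edgeR adjusted p = 0.0647 to 0.12), as did the size factors of DESeq2 (0.0557), DESeq2 itself (0.0574), no filter on low counts (0.0588) and log2(FPKM + 0.1) (0.0503, limma). Leaving out any but Notch1-/- library 1 ended that of Rspo3 (0.0622 to 0.132), any but WT library 3 that of Prickle1 (0.0841 to 0.169), and Notch1-/- library 3 that of Nkd1 (-1.10, 0.0567). The call of Prickle1 also ended with upper quartile scaling (-0.47, edgeR adjusted p = 0.0793), without a filter on low counts (-0.53, 0.054) and with the replicate block (-0.53, 0.0529).

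**Figure D3:**
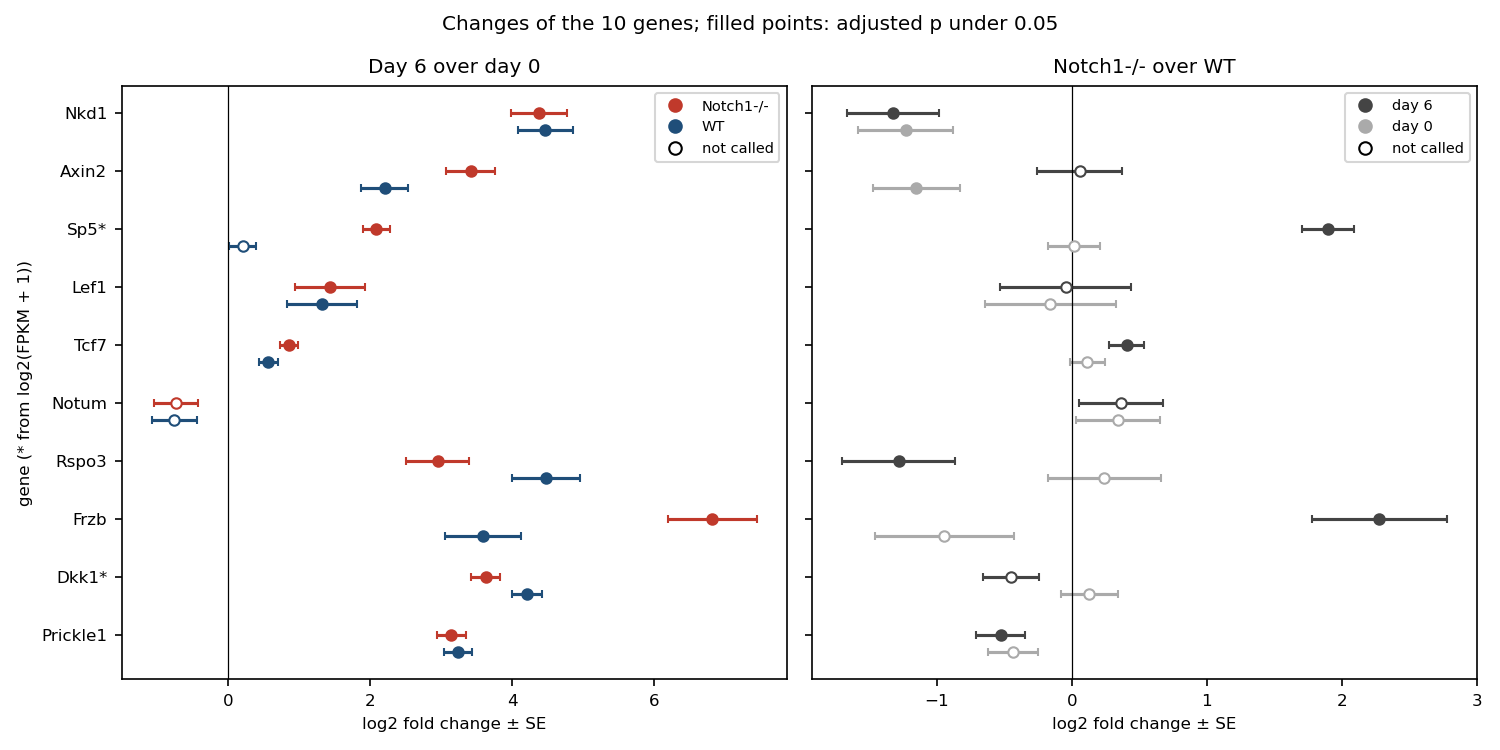
Log2 fold changes ± SE of the 10 genes: left, day 6 over day 0 in Notch1-/- (red, upper) and WT cells (blue, lower); right, Notch1-/- over WT on day 6 (dark, upper) and day 0 (light, lower); filled points passed the test, and starred genes are from log2(FPKM + 1). Frzb and Sp5 stand out at 2.28 and 1.90 for Notch1-/- over WT on day 6, with Nkd1 and Rspo3 at -1.32 and -1.28.

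Whether the day 6 over day 0 change itself depended on the genotype was tested as an interaction. It was called for Frzb, whose rise was greater in Notch1-/- than in WT cells by 3.22 (SE 0.71; edgeR adjusted p = 0.0125), and for Sp5, by 1.88 (SE 0.27; limma on log2(FPKM + 1), adjusted p = 0.00245). Of the 8 genes with counts 1 was called, or 12.5%, where 11.3% of all loci were, 6.36% with a positive and 4.92% with a negative difference, so the count does not stand apart from the background; by limma 12.7% of loci were called. Frzb was called under all 21 alternatives, from 2.24 without WT day 0 library 3 to 3.65, and Sp5 under all 15. The rise of Axin2 was greater in Notch1-/- cells by 1.21 (SE 0.45) and that of Rspo3 smaller, at -1.53 (SE 0.59), but neither passed the test (edgeR adjusted p = 0.102 and 0.12). Axin2 passed it without Notch1-/- day 6 library 3 (1.51, 0.027) or without Notch1-/- day 0 library 1 (1.49, 0.0376). For Nkd1 (-0.09, SE 0.49) and Prickle1 (-0.09, SE 0.26) the difference of the changes was small against its error (edgeR adjusted p = 0.937 and 0.869).

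The third question is how the genotypes differed before differentiation. On day 0 the feedback genes Nkd1 and Axin2 were lower in Notch1-/- cells and no other gene of the 10 passed the test. Nkd1 averaged 1.27 ± 0.37 CPM in Notch1-/- and 2.98 ± 1.69 CPM in WT cells (-1.23, SE 0.35; edgeR adjusted p = 0.0465), and Axin2 averaged 13.3 ± 4.42 CPM in Notch1-/- and 29.6 ± 8.40 CPM in WT cells (-1.15, SE 0.32; adjusted p = 0.0409). For both, all Notch1-/- libraries lay below all WT ones. Of the 8 genes with counts 2 were called, both lower, where 9.56% of loci were called, 3.71% higher and 5.86% lower. Sp5 and Dkk1 stood at 0.02 and 0.13 (SE 0.19 and 0.21; limma on log2(FPKM + 1), adjusted p = 0.971 and 0.72), where 6.7% of loci were called. CPM ranges did not overlap for 20.6% of loci.

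These calls were close to the threshold. They ended for both genes without WT day 0 library 1, Notch1-/- day 0 library 2 or 3, any 1 WT day 6 library or Notch1-/- day 6 library 1, and for Nkd1 without Notch1-/- day 6 library 2 (edgeR adjusted p = 0.0616). Without WT day 0 library 1 Nkd1 stood at -0.66 (adjusted p = 0.206) and Axin2 at -0.94 (0.152), and Nkd1 was also lost with the replicate number as a block within the 6 day 0 libraries (-1.11, adjusted p = 0.0857), a fit in which Axin2 passed. Frzb stood at -0.94 (SE 0.51; edgeR adjusted p = 0.249), at -1.38 without WT day 0 library 2 (0.0235) and at 0.05 without WT day 0 library 3, where fibroblast markers were highest (0.955). Prickle1 passed the test without Notch1-/- day 0 library 3 (-0.66, edgeR adjusted p = 0.0433).

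Levels can be set beside each other between genes only per length, and the deposited FPKM serve for that. For Sp5 and Dkk1 all or nearly all exon bases are shared with an opposite-strand locus. The effect of that on their FPKM and ranks was not tested. In Notch1-/- embryoid bodies the order of mean FPKM was Tcf7 (44.7), Sp5 (34.3), Lef1 (23.5), Frzb (21.7), Axin2 (20.1), Dkk1 (15.3), Prickle1 (13.4), Rspo3 (7.58), Notum (5.65) and Nkd1 (3.88). In WT embryoid bodies Tcf7 (34.98 FPKM) and Lef1 (26.1) led, followed by Dkk1, Prickle1, Axin2 and Rspo3 between 19.3 and 20.5, then Nkd1 (10.3), Sp5 (8.14), Notum (4.79) and Frzb (4.29). Frzb was at rank 4 of the 10 in Notch1-/- and at rank 10 in WT embryoid bodies. On day 0 Tcf7 led in both genotypes (24.9 FPKM in Notch1-/- and 24.4 FPKM in WT cells), and Frzb, Nkd1 and Dkk1 were the lowest, all at or below 0.49 FPKM.

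**Figure D4:**
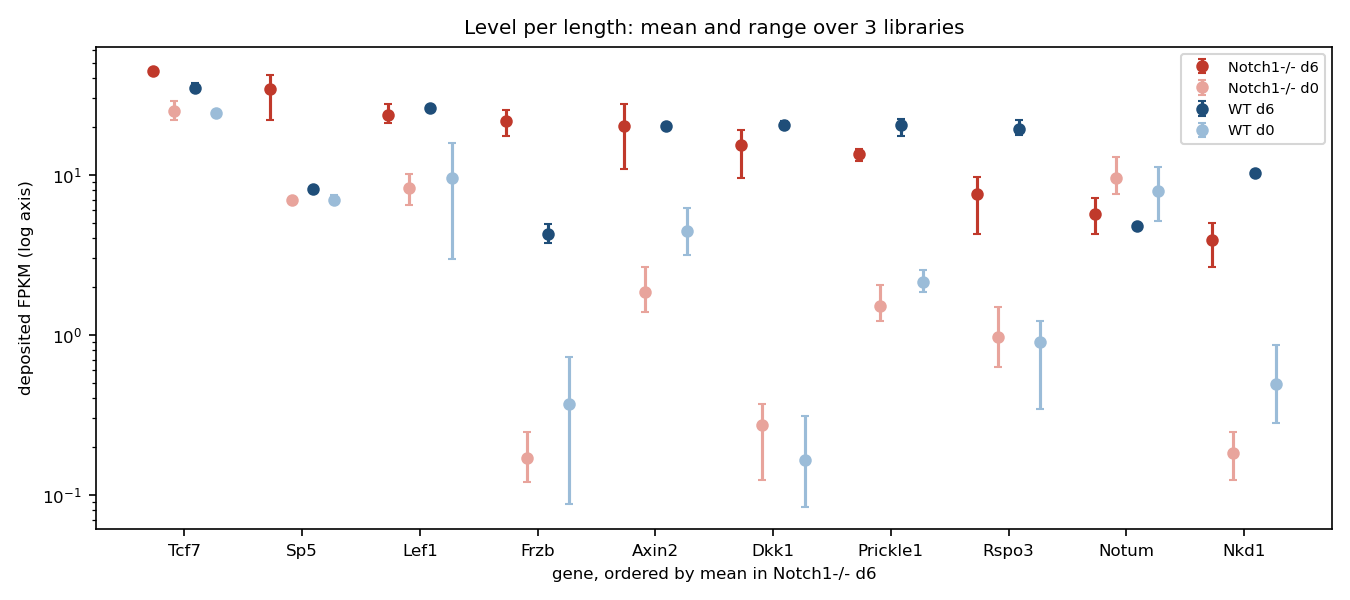
Deposited FPKM (log axis) of the 10 genes, ordered by their mean in Notch1-/- cells on day 6, as mean and range of 3 libraries in Notch1-/- day 6, Notch1-/- day 0, WT day 6 and WT day 0 (left to right for each gene). Frzb spans the widest distance, with 21.7 FPKM on day 6 and 0.17 FPKM on day 0 in Notch1-/- cells, and Notum is the gene whose day 0 means lie above its day 6 means.

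The 10 genes also differed in how far the libraries of a group spread. Over the 10 genes, the highest library was a median of 1.11-fold above the lowest in WT embryoid bodies (1.04 to 1.37) and 1.82-fold in Notch1-/- embryoid bodies (1.07 to 2.6). On day 0 it was 1.82-fold in Notch1-/- (1.07 to 2.97) and 2.35-fold in WT cells (1.13 to 7.88). In Notch1-/- embryoid bodies library 3 was the lowest for 8 of the 10 genes and the highest for none, while how often a library was the lowest over all loci was not counted. The exceptions were Lef1 and Notum, for which library 1 was the lowest. The same library 3 had 39.92 CPM of summed cardiac progenitor markers, against 116.0 and 110.7 CPM in libraries 1 and 2, and 132.5 CPM of endothelium and blood markers, against 303.3 and 269.7 CPM, though its mean log2 CPM of the endothelium and blood list was the highest of the 3 (1.93, against 1.39 and 0.88). Other lists went the other way: library 3 had the highest sum of extraembryonic endoderm markers (59.02 CPM, against 45.17 and 28.4 CPM). Its neural sum was also the highest (261.4 CPM, against 213.7 and 204.7 CPM), though its neural mean log2 CPM was the lowest (3.325, against 3.403 and 3.786). Without library 3 Nkd1 was no longer called on day 6 and Axin2 was called in the interaction. The part of these markers in that was not tested. Among WT embryoid bodies library 3 was the lowest for 7 genes, within a narrower range.

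Other genes of the pathway were read from lists of 115 genes, of which 101 were linked to a locus and 94 tested. These lists too were chosen with earlier results of these data known, so their shares beside all loci are a description and no test. On day 6 over day 0, 44 rose and 15 fell in Notch1-/- cells (median 0.97) and 40 rose and 20 fell in WT cells (median 0.41). Between the genotypes on day 6, 23 were higher and 22 lower in Notch1-/- cells (median -0.07), and on day 0 1 was higher and 16 lower (median -0.19). With the replicate block within the day 0 libraries that last count was 2 higher and 9 lower. The interaction was called for 19 genes with the greater change in the direction of higher values in Notch1-/- cells and for 11 in the other direction. Called genes made up 62.8% and 63.8% of the tested ones in the day 6 over day 0 changes of Notch1-/- and WT cells, 47.9% and 18.1% in the genotype differences on day 6 and day 0, and 31.9% in the interaction, to be read against the percentages of all loci given above.

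Ligands and their cofactors split by genotype on day 6. Of 21 tested ligands, R-spondins and secretion factors, 9 were higher and 5 lower in Notch1-/- embryoid bodies, or 66.7% against 28.1% of all loci. Wnt8a, a ligand of the primitive streak, averaged 88.2 ± 3.51 CPM in Notch1-/- and 4.55 ± 2.31 CPM in WT embryoid bodies (4.28, SE 0.41; edgeR adjusted p = 1.83e-05), and 2.24 ± 1.24 CPM in Notch1-/- and 10.5 ± 1.27 CPM in WT cells on day 0 (-2.24, SE 0.38; 0.00301). Its interaction was 6.52 (SE 0.56; adjusted p = 7.33e-05, edgeR). Wnt2b was also higher in Notch1-/- embryoid bodies (4.23, SE 0.31; adjusted p = 2.79e-06), at a locus that shares 86.27% of its exon bases. Wnt7b fell in both genotypes, by 4.54 (SE 0.32) in Notch1-/- and by 2.45 (SE 0.29) in WT cells. Wls, which carries Wnt proteins to the cell surface, averaged 159.1 ± 38.9 CPM in Notch1-/- embryoid bodies and 389.2 ± 5.05 CPM in WT ones, and rose by 2.84 (SE 0.35) in WT cells.

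Of 17 tested antagonists and feedback genes beside the 10, 2 were higher and 4 lower in Notch1-/- embryoid bodies, or 35.3% against 28.1% of all loci. The antagonist Dkk3 averaged 6.28 ± 1.64 CPM in Notch1-/- and 42.5 ± 7.91 CPM in WT embryoid bodies (-2.76, SE 0.42; edgeR adjusted p = 0.000511). Apcdd1, a membrane inhibitor of Wnt signalling, averaged 24.7 ± 9.55 CPM in Notch1-/- and 129.4 ± 8.29 CPM in WT embryoid bodies (-2.39, SE 0.29; adjusted p = 0.000103), and rose in both genotypes, by 2.15 (SE 0.29) in Notch1-/- and by 4.36 (SE 0.32) in WT cells. Dkk2 averaged 0.358 ± 0.0517 CPM in Notch1-/- and 12.5 ± 3.64 CPM in WT embryoid bodies, with an interaction of -6.48 (SE 1.04; adjusted p = 0.00209). Secreted antagonists thus stood on both sides, with Frzb higher and Dkk2 and Dkk3 lower in Notch1-/- embryoid bodies. On day 0 5 genes of this list were lower and 0 higher in Notch1-/- cells, Sfrp4 (-2.26, SE 0.34) among them. That is 29.4% of the 17 tested, where 9.56% of all loci were called on day 0 and 5.86% were lower. Over all the pathway lists only 2 genes were still called on day 0 with only the 2 groups compared. Tnik (-1.31, SE 0.29), also among the 5, is a kinase gene that the list holds and not an antagonist.

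Of 13 tested receptors 2 were higher and 2 lower in Notch1-/- embryoid bodies, or 30.8%, near the 28.1% of all loci. The receptor gene Fzd4 averaged 10.9 ± 2.42 CPM in Notch1-/- and 81.0 ± 8.41 CPM in WT embryoid bodies (-2.90, SE 0.34; edgeR adjusted p = 7.48e-05). Fzd5 was higher in Notch1-/- embryoid bodies (1.21, SE 0.33; edgeR adjusted p = 0.0164), at a locus that shares 80.31% of its exon bases. Ror1, a receptor of the branch without beta-catenin, rose by 3.00 (SE 0.27) in Notch1-/- and by 2.37 (SE 0.27) in WT cells. Of 15 tested mediators 2 were higher and 5 lower, or 46.7%. Bcl9l, a coactivator of beta-catenin, averaged 63.1 ± 16.0 CPM in Notch1-/- and 137.6 ± 10.2 CPM in WT embryoid bodies (-1.12, SE 0.20; adjusted p = 0.0014). Apc was higher in Notch1-/- embryoid bodies (0.67, SE 0.11; edgeR adjusted p = 0.000687), at a locus that shares 34.72% of its exon bases.

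Of 16 tested target genes 6 were higher and 5 lower in Notch1-/- embryoid bodies, or 68.8% against 28.1% of all loci. Sp8, a zinc finger factor related to Sp5, averaged 18.4 ± 3.70 CPM in Notch1-/- and 4.80 ± 2.08 CPM in WT embryoid bodies, and its rise was greater in Notch1-/- cells by 3.86 (SE 0.57; edgeR adjusted p = 0.00133). Id2, an inhibitor of basic helix-loop-helix factors, averaged 13.4 ± 1.44 CPM in Notch1-/- and 137.1 ± 6.35 CPM in WT embryoid bodies (-3.36, SE 0.36; adjusted p = 4.82e-05). Bambi, a decoy receptor of the TGF-beta family, averaged 42.4 ± 19.0 CPM in Notch1-/- and 208.9 ± 32.6 CPM in WT embryoid bodies (-2.30, SE 0.29; adjusted p = 0.000145). Id2 and Bambi are also known to respond to BMP signals.

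Of 12 tested planar polarity genes 2 were higher and 1 lower in Notch1-/- embryoid bodies, or 25%, which is below the 28.1% of all loci and no result about the list. Celsr2, an atypical cadherin of that pathway, averaged 29.5 ± 9.57 CPM in Notch1-/- and 8.60 ± 1.19 CPM in WT embryoid bodies (1.78, SE 0.41; edgeR adjusted p = 0.0064), the opposite direction from Prickle1. Dact1 was higher too (1.29, SE 0.28; edgeR adjusted p = 0.00449), at a locus that shares 70.47% of its exon bases. Vangl2, a membrane protein of the same pathway, rose by 1.39 (SE 0.22) in Notch1-/- cells.

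**Figure D5:**
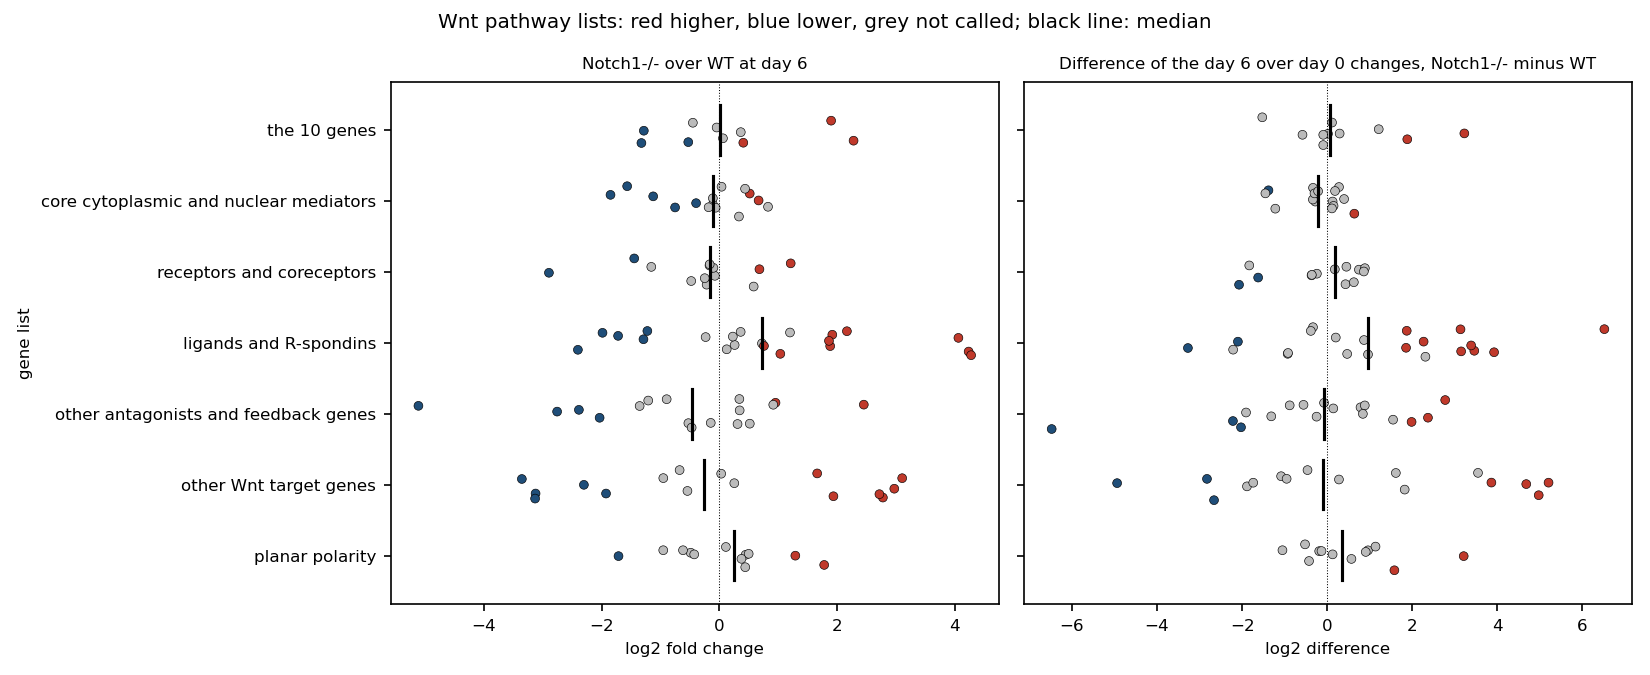
Log2 fold change of Notch1-/- over WT on day 6 (left) and log2 difference of the day 6 over day 0 changes, Notch1-/- minus WT (right), for the 10 genes and 6 lists of other Wnt pathway genes; each point is a gene, red higher, blue lower, grey not called, and the black line is the list's median. Ligands and R-spondins have a median of 0.72 on the left and 0.96 on the right, while the median of the 10 genes is 0.01 and 0.07.

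For each of the 8 genes with counts the 2 genes with the most similar pattern were found among 7751 genes, by the root mean square difference of log2 CPM over the 12 libraries after centring each gene. Genes were not scaled, so those that change little, such as Tcf7, tend to have small distances. Those that change much, such as Frzb, tend to have large ones. The distances therefore do not rank how distinctive the patterns are. Rspo3 was nearest to Pcdh18 (0.37) and the imprinted gene Peg3 (0.42), Prickle1 to L3mbtl3 (0.25) and Cdh2 (0.31), which encodes N-cadherin, and Nkd1 to Plcl2 (0.43) and Mogat2 (0.45). Axin2 was nearest to Grip1 (0.40), which shares 49.35% of its exon bases with another locus, and Asxl3 (0.42). Tcf7 had the closest neighbours, Ralgps2 (0.11) and Zbtb18 (0.12), followed by Notum with Smarcad1 (0.23) and Elac2 (0.24), and Lef1 was nearest to Tceal8 (0.46) and Lrfn4 (0.50). Frzb had none so near: Six2 (1.07, at a locus with 81.88% of its exon bases shared) and Cachd1 (1.07) came first. Cachd1 averaged 272.1 CPM in Notch1-/- cells on day 6 and 10.1 CPM on day 0, and 122.0 CPM in WT cells on day 6 and 18.4 CPM on day 0.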

How the data were processed

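Total RNA was poly(A)-selected and sequenced as pairs of reads on an Illumina HiSeq2000, per the labels' protocols. Genome build mm9 and the tools HTSeq (0.5.4p3), Cufflinks (2.1.1), TopHat2 (2.0.8) and DESeq appear in the submitters' processing notes without their roles. The files deposited by the authors hold raw counts per locus, FPKM of these loci and transcript models. How reads over several loci and strand were handled is not given in the sources used here.

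Gene symbols were linked to loci by exact intron matches to a GRCm38 annotation at the local shift between builds, given by unique intron-exon-intron anchors. Of 272603 introns 217734 matched, and 22 matched at a decoy offset of 100000 bases. This linked 18216 loci to 1 gene, 1498 to several and 20325 to none. No coordinates were converted.

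Counts were tested with edgeR 4.0.16 (R 4.3.3) by the quasi-likelihood test, with TMM factors (0.908 to 1.14) and the default filter, in 1 fit of the 12 libraries with a mean per group. Sp5 and Dkk1, planned for this test, have 0 counts, so limma 3.58.1 was run on log2(FPKM + 1) over loci with FPKM of at least 0.1 in at least 3 libraries. Calls are at a Benjamini-Hochberg adjusted p under 0.05 over all loci. Replicates differed by far more than counting error (chi-square of 41.3 to 404 per degree of freedom) over all loci. The fits were tested on simulated data.

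Same-numbered libraries deviated together on day 0, where every correlation of deviations from the group means between the genotypes was over 0.1 (0.398, 0.275 and 0.165), so the block is given there. The 10 genes and the lists were chosen with earlier results of these data known. Beside the 10 genes, pathway genes were named only from the 2 called genes with the smallest p of each list and contrast, at a mean log2 CPM of at least 0. Not all of these are named. Alternatives were upper quartile and DESeq2 (1.42.0) scaling, DESeq2 itself, other filters, 2-group fits, limma on FPKM with pseudocounts of 1 and 0.1, the replicate block, and leaving out each library.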

Additional observations from a re-analysis of the deposited data

Results flagged for a closer look

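The day 6 over day 0 change differed between the genotypes for 2 of the 10 genes, by a test of the difference itself. That test called 11.3% of all loci by edgeR and 12.7% by limma, so the count is no result about the 10 genes as a set. For Sp5 the log2 difference of the changes, Notch1-/- minus WT, was 1.883 (SE 0.272; limma on log2(FPKM + 1), adjusted p = 0.00245), and all 3 Notch1-/- libraries of day 6 lay above the 9 others. For Frzb it was 3.224 (SE 0.713; edgeR adjusted p = 0.0125), with all 3 Notch1-/- libraries of day 6 above all WT libraries.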

How the results depend on the processing

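Values of the 10 genes were recomputed 1040 times under the alternatives, of which 907 kept their direction and their side of the threshold, 71 kept the direction and lost the call, 14 gained a call and 48 changed sign. The rises of Nkd1, Axin2, Tcf7, Rspo3, Frzb, Dkk1 and Prickle1 from day 0 were called in both genotypes under every alternative run, and so were the differences of Frzb and Sp5 on day 6 and in the interaction. The causes of the changes below were not tested.

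For Notch1-/- over WT on day 6, 3 of the 5 genes were called without a filter on low counts, and 1 to 5 with 1 library left out. For Notch1-/- over WT on day 0, the 2 calls became 1 with DESeq2's size factors and with the replicate block in the day 0 libraries alone (an alternative added after seeing the data), and 0 with a filter of 1 CPM in 3 libraries, with only the 2 groups compared and with FPKM under each of the 3 settings, and were 0 to 3 with 1 library left out. The other pathway genes called there, 17 in all, became 2 with only the 2 groups, 7 and 4 with log2(FPKM + 1) with and without the filter, 11 with the block in the day 0 libraries, and 5 to 32 with 1 library left out (5 without WT library 1, 8 without Notch1-/- library 2, 9 without library 3 of either genotype, 30 without Notch1-/- library 1 and 32 without WT library 2). In the interaction 2 genes in place of 1 were called with log2(FPKM + 1), Nkd1 (-0.92, limma adjusted p = 0.0425) being the second, and 1 to 2 with 1 library left out.

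Sign changes concerned differences that were not called. Axin2 on day 6 was -0.008 with the 1 CPM filter, -0.098, -0.107 and -0.098 with the 3 FPKM settings, -0.036 with the replicate block and -0.262 to 0.369 with 1 library left out. Lef1 on day 6 was 0.009 with upper quartile scaling and -0.178 to 0.026 with 1 library left out. Lef1 on day 0 was 0.019, 0.057 and 0.019 with FPKM, 0.014 with the block, 0.244 with the block in the day 0 libraries and -0.632 to 0.632 with 1 library left out, and its interaction was -0.172, -0.216 and -0.172 with FPKM, -0.105 with the block and -0.691 to 0.586 with 1 library left out. The interaction of Notum was -0.085 with DESeq2's size factors, -0.086 with DESeq2, -0.055 with the 1 CPM filter, -0.092, -0.099 and -0.092 with FPKM, -0.031 with the block and -0.224 to 0.369 with 1 library left out. With 1 library left out, the interaction ran from -0.660 to 0.124 for Nkd1 and from -0.223 to 0.117 for Prickle1, and the day 0 difference from -1.380 to 0.047 for Frzb, -0.017 to 0.591 for Notum, -0.191 to 0.550 for Rspo3 and -0.013 to 0.064 for Sp5.

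Outside day 0 same-numbered libraries deviated together weakly or not at all, which does not settle whether the replicate numbers pair them. Correlations of same-numbered deviations were 0.172, 0.119 and -0.032 between the days in Notch1-/- cells, 0.13, 0.127 and 0.048 in WT cells, and 0.118, 0.082 and -0.011 between the genotypes on day 6. The block over all 12 libraries called 8 of 8 genes in each day 6 over day 0 change and ended the call of Prickle1 on day 6 (-0.531, edgeR adjusted p = 0.0529).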
